A study of Mus musculus with 20 samples.

Results

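Oxidative phosphorylation is carried out in the inner mitochondrial membrane by 5 protein complexes whose subunits come mostly from nuclear genes. The transcripts described here are the 85 nuclear genes named for these subunits, of 23361 rows per table, taken by name and not by any measured value: names beginning with Nduf (without the Ndufaf assembly factors), Uqcr, Cox4 to Cox8 or Atp5, and Sdha to Sdhd. They comprised 36 genes of complex I, 4 of complex II, 8 of complex III, 20 of complex IV and 15 of complex V. The other 2, Atp5s (coupling factor B) and Atp5sl (an assembly factor of complex I, now called Dmac2), carry the name of the ATP synthase but are not subunits of it. Ndufa4, named after complex I, is a subunit of cytochrome c oxidase and was counted with its paralogue Ndufa4l2 in complex IV.

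The study asked what the loss of GPR35, a G protein-coupled receptor of the gut epithelium and of macrophages that interacts with the Na+/K+-ATPase, does to the cell. RNAseq was carried out on ileum, the distal small intestine, and on bone marrow-derived macrophages (BMDM), cells grown in culture from marrow. Each tissue had 5 libraries from Gpr35+/+ (wild type) and 5 from Gpr35-/- mice, 20 libraries in all. The knockout was germline, from a mutant mouse repository, on C57BL/6, and was bred from heterozygous parents so that the controls were littermates. All mice were untreated, sex-matched and 6 to 12 weeks old, so no treatment or time separates the groups, and the single knockout line and its shared background limit them as a model. The sources used here do not say that each macrophage library came from a mouse of its own, so p-values measure the spread between libraries. In ileum tissue, fewer cells of a type and less RNA per cell cannot be told apart.

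Complex I takes electrons from NADH and complex II takes them from succinate, complex III passes them to cytochrome c, and complex IV hands them to oxygen. Complexes I, III and IV pump protons, and complex V, the ATP synthase, makes ATP from the proton gradient. Absorptive enterocytes run on this pathway to fuel transport driven by the Na+/K+-ATPase, while macrophages shift between it and glycolysis with their activation. Nuclear and mitochondrial genes each encode some of the subunits, and nuclear subunits are known as targets of the transcription factors NRF1, GABP (an ETS factor) and the oestrogen-related receptors (ERR).

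The promoters of the members are shown first, and a link between their motifs and the levels or changes below was not tested. RefSeq (GRCm38.p6) gave a window of 250 bases before to 50 after the start for 70 of the 85 members. The median GC content of these windows was 57.5%, against 52.7% for all promoters, and its part in the motif shares was not tested. The NRF1 core motif, given in capitals in the lines below and searched on both strands like all motifs here, stood in the windows of 5 members (7.14%), against 1.07% of all 27025 genes with a window and 2.45% of those tested in ileum. The 5 cores are shown in capitals with 10 bases on each side, written 5′ to 3′ along the gene. They lie at chr15:102671070-102671099, minus strand (Atp5g2), chr5:108434430-108434459, minus strand (Atp5k), chr5:115349101-115349130, minus strand (Cox6a1), chr17:56717692-56717721, plus strand (Ndufa11) and chr9:108936668-108936697, plus strand (Uqcrc1).
Atp5g2: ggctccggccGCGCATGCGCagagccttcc
Atp5k: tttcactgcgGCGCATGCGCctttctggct
Cox6a1: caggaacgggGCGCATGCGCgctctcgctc
Ndufa11: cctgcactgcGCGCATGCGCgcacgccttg
Uqcrc1: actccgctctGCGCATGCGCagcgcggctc
The first base of the core lay 42 bases before the start in Atp5g2, 50 in Atp5k, 60 in Ndufa11 and 162 in Cox6a1, and at base 31 after it in Uqcrc1. Atp5k and Cox6a1 were the members with the highest mean level of complexes V and IV in ileum, and Ndufa11 the tested member with the lowest level of complex I, so the core stood at both ends of the range of levels.

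A relaxed NRF1 motif, in which the 2 central bases are free and which includes the core, was found in 19 of 70 members (27.1%), among them 9 of 32 of complex I and 6 of 14 of complex V, against 7.0% of all genes and 15.2% of those tested in ileum. The YY1 core ATGGCGGC was found in 7 members (10%), 6 of them of complex I, against 5.86% of ileum-tested genes. The ETS core CCGGAAG stood in 22.9% of members and 20.7% of ileum-tested genes, and the SP1 motif GGGGCGGGG in 17.1% and 24.5%. The ERR motif TCAAGGTCA was found in 2 members, Sdhd and Atp5g3 (2.86%), against 0.466% of all genes and 0.371% of those tested in ileum. In Atp5g3, the most abundant gene of the c ring, its reverse complement (capitals) began 52 bases before the start, within the 200 bases at chr2:73911327-73911526, minus strand. The same reach of Cox7a1 and Cox7a2, an isoform pair whose shares differed between the tissues, is shown from 200 to 51 bases before the start, at chr7:30183971-30184120, plus strand and chr9:79759904-79760053, minus strand. None of the 6 motifs was found in these last 2 stretches. A match is a stretch of letters and not a measured binding site.
Atp5g3: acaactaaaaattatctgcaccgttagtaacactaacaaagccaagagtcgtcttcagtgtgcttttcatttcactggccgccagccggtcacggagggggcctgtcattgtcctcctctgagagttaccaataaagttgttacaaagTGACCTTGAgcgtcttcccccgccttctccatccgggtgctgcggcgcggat
Cox7a1: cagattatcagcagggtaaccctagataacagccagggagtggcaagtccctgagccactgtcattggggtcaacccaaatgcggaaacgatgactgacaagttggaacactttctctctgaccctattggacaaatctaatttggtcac
Cox7a2: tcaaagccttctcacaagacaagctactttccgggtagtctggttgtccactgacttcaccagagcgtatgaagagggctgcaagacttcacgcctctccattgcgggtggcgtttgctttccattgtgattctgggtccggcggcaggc

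Levels are FPKM, read numbers that the authors scaled to transcript length and library size within each table. Gpr35 lay at 2.49 to 3.85 FPKM in Gpr35+/+ and 0.00970 to 0.0408 in Gpr35-/- ileum, and at 2.51 to 3.32 and 0.0952 to 0.132 in macrophages, so every library matched its label. Total reads are not known. Depth relative to the first Gpr35+/+ library of the tissue was 1 to 1.86 in Gpr35+/+ and 1.57 to 2.52 in Gpr35-/- ileum, and 0.782 to 1.02 over all macrophage libraries, so the ileum of Gpr35-/- mice was mostly read deeper. The summed level of 14 enterocyte markers in ileum was 20209 to 42004 FPKM and that of 8 smooth muscle markers 5.02 to 45.8 FPKM. The macrophage markers summed to 3844 to 4234 FPKM in the macrophage libraries. Some genes that are abundant in these cells are listed at 0 in a whole table or genotype (Fabp2, Apoa1 and Anpep in ileum, Lyz2 in macrophages, Eef1a1 in macrophages of 1 genotype), so a 0 below says only that the gene is listed at 0. The 13 mitochondrially encoded subunits were looked for by their mt- names and found in neither table, so they could not be analysed here.

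2 features set libraries apart. Gpr35+/+ ileum library 2 had the lowest median over enterocyte markers (log2 deviation -0.87 from the mean of 10 libraries). Its summed level of these markers, 31492 FPKM and led by a few genes, was not the lowest. RNAs without a poly(A) tail were highest in it (2.00). The ileum median and counts over all members, the count for the difference between tissues and the Gpr35+/+ spread are given with and without it. Ileum medians per complex and estimates of single genes, including differences between tissues, are given with it only. It was the lowest library for every complex, so it pulls most of these ileum changes upward. Their signs without it are not given here. The macrophage libraries carried traces of intestinal transcripts. Fabp6, the ileal bile acid-binding protein at 10117 to 34321 FPKM in ileum, was at 17.6 to 73.1 FPKM in the 5 Gpr35+/+ macrophage libraries and at 35.0, 0.0984, 0, 0.115 and 26.2 in Gpr35-/- libraries 1 to 5.

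The subunit transcripts were among the most abundant of both tissues. Of the 85 members, 79 passed the filter of at least 0.5 FPKM in at least 5 of the 10 libraries in ileum, and 79 in macrophages. Those 79 had a median level of 213 FPKM in ileum and 118 FPKM in macrophages, where the median of all genes tested was 7.81 and 11.8. Their median percentile among the rows above 0 was 97.5 and 96.0. Together the members took 4.40% ± 0.437 of the summed FPKM in Gpr35+/+ and 4.54% ± 0.283 in Gpr35-/- ileum (SD, n = 5 each), and 2.27% ± 0.0998 and 2.28% ± 0.0498 in macrophages. The genotypes overlapped within each tissue.

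The complexes stood in the same order of level in both tissues. The median FPKM of tested subunits was 118 for complex I, 205 for complex II, 321 for complex III, 496 for complex IV and 517 for complex V in ileum. In macrophages it was 75.5, 124, 151, 192 and 229 FPKM. Within complex I, the 7 core subunits, which line the path of the electrons, had a median of 93.0 FPKM in ileum and 61.9 in macrophages, below the 124 and 85.9 FPKM of the 29 accessory subunits. FPKM is a level per transcript length. The members are short, with a median transcript length of 659 bases against 2054 for all genes tested in ileum, and how length enters these levels was not tested.

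**Figure D1:**
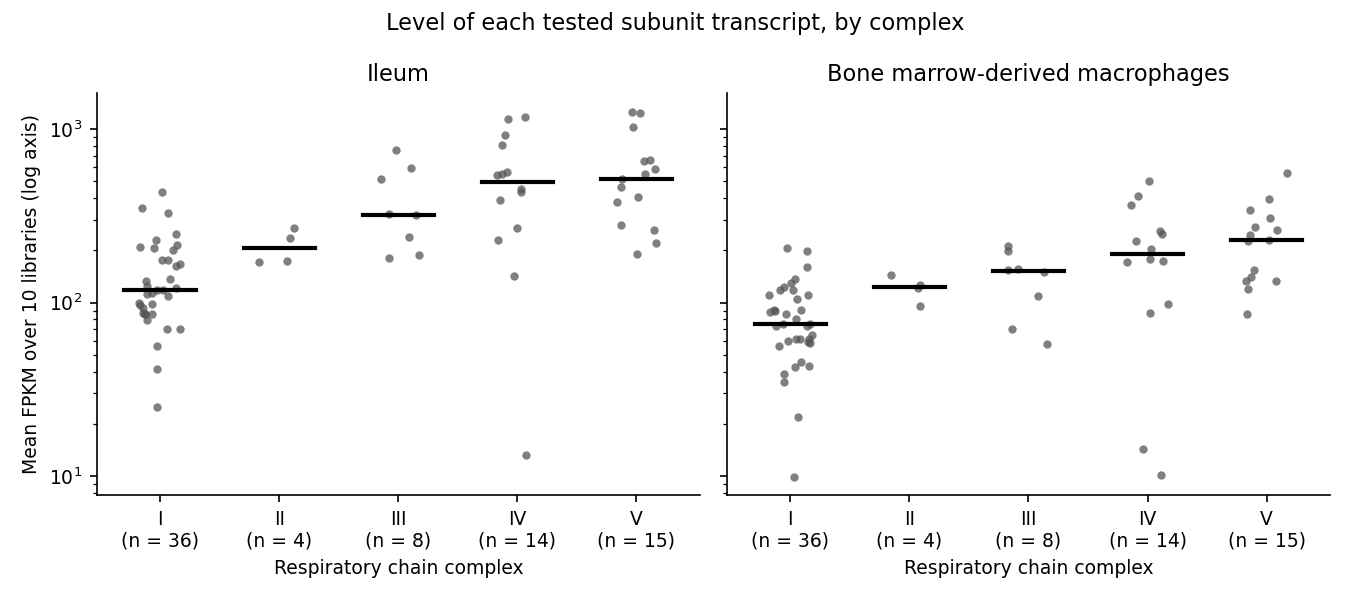
Mean FPKM over 10 libraries (log axis) of each tested subunit in ileum and in macrophages, grouped by complex, with 1 point per gene and a bar at the median. The medians climb from complex I to complex V in both panels, from 118 to 517 FPKM in ileum and from 75.5 to 229 in macrophages.

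Largely the same genes led in both tissues. Atp5k, subunit e of the ATP synthase, was the most abundant member of complex V, at 1256 FPKM (mean of 10 libraries) in ileum and 561 in macrophages. Uqcrh, the hinge protein of complex III, led its complex (759 and 212 FPKM), Sdhb, the iron-sulfur subunit, led complex II (268 and 144), and Ndufa3, an accessory subunit, led complex I (435 and 206). In complex IV the first place was held by Cox6a1 in ileum (1167 FPKM, just above the 1134 of Cox4i1) and by Cox4i1 in macrophages (501). The lowest tested subunits were Ndufa11 of complex I (25.2 and 9.88 FPKM), Atp5g1 of complex V (191 and 85.5), Uqcrc2 of complex III in ileum (179.5) and Uqcrfs1, the Rieske protein, in macrophages (57.5). Over the 78 members tested in both tissues the rank correlation of mean levels was 0.877, a description across genes that are not independent. The 2 tables were scaled separately, so the higher FPKM of 77 of the 85 members in ileum is given side by side and not as a difference.

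Several isoform families had shares that did not overlap between the 2 tissues, given here as ranges with no test. The share of an isoform within its family and library does not depend on the scaling of a table. The c subunit of the ATP synthase ring is encoded by Atp5g1, Atp5g2 and Atp5g3, which give the same mature protein. Of their summed FPKM, Atp5g2 took 10.6% to 15.6% in Gpr35+/+ and 12.1% to 14.8% in Gpr35-/- ileum, but 38.8% to 43.5% and 38.8% to 41.1% in macrophages. Atp5g3 took 71.5% to 77.9% and 73.6% to 77.6% in ileum and 43.0% to 45.7% and 45.1% to 46.2% in macrophages. The 2 tissues did not overlap for these 2 genes, and the share of Atp5g1 did not overlap either but lay closer (10.4% to 12.9% in ileum, 13.1% to 15.5% in macrophages). Within each tissue the genotypes overlapped for all 3.

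Cox7a1, known as the isoform of heart, skeletal muscle and brown fat, was abundant in ileum. It had 475, 274, 497, 444 and 340.1 FPKM in Gpr35+/+ libraries 1 to 5 and 379, 513, 302, 322 and 352 in Gpr35-/- libraries 1 to 5. In macrophages it had 14.2, 15.1, 17.5, 13.8 and 12.9 FPKM in Gpr35+/+ and 14.5, 15.8, 15.3, 13 and 10.4 in Gpr35-/-, and the 3 Gpr35-/- libraries with almost no Fabp6 lay within this range. Of the sum of Cox7a1 and its widely expressed partner Cox7a2 it took 54.0% to 62.9% in ileum and 9.56% to 14.3% in macrophages. In the ileum libraries the summed levels were 5.02 to 45.8 FPKM for 8 smooth muscle and 4.86 to 103 FPKM for 8 skeletal muscle genes. They were 0.207 to 1.05 FPKM for 4 heart muscle and 27.9 to 79.3 FPKM for 7 adipocyte genes. Of these, 2 skeletal muscle genes and 1 adipocyte gene are listed at 0 in all ileum libraries. The ileum libraries highest for Cox7a1, Gpr35-/- library 2 and Gpr35+/+ library 3, were also the highest in the median deviation of enterocyte markers (0.49 and 0.42), and the lowest, Gpr35+/+ library 2, was the lowest for them. By the summed level of the same markers, however, the first 2 stood low (26652 and 25209 FPKM). The parts of enterocytes, muscle and fat in the level of Cox7a1 and in this order were not tested.

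Cox6a2, the muscle form of subunit 6a, went the other way. It had 10.7, 11.1, 10.9, 10 and 9.61 FPKM in Gpr35+/+ and 8.78, 7.94, 11.6, 9.61 and 11 in Gpr35-/- macrophages, between 2.14% and 3.27% of the sum with Cox6a1. In ileum it had 0.142, 0.307, 0.133, 0.152 and 0.140 FPKM in Gpr35+/+ and 0.449, 0.336, 0.557, 0.361 and 0.180 in Gpr35-/- and did not pass the filter. The lowest macrophage library thus stood above the highest ileum library for Cox6a2 even though most members read higher in ileum. Cox6b2, best known from testis, had 14.2, 10.9, 20.3, 15.3 and 12.8 FPKM in Gpr35+/+ and 9.16, 16.9, 10.3, 10.8 and 11.9 in Gpr35-/- ileum, at most 2.07% of the sum with Cox6b1. In macrophages it had 0.521, 0.494, 0.205, 0.444 and 0.595 FPKM in Gpr35+/+ and 0.290, 0.234, 0.714, 0 and 0.227 in Gpr35-/-, and did not pass the filter. Among all members the percentile within the table differed most, towards ileum, for Cox6b2 (76.1 against 32.8), Cox7a1 (98.6 against 70.5) and Ndufa11 (84.1 against 63.6). Towards macrophages it differed most for Cox6a2 (31.6 against 64.0), followed by Cox4i2 (20.3 against 22.1) and Cox7a2l (96.3 against 97.4).

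The remaining restricted isoforms were at or near 0. Cox7b2 and Cox8c, known from testis, are listed at 0 in all 20 libraries. Cox8b, a muscle and brown fat isoform, is listed at 0 in all macrophage libraries and had 0, 0, 1.14, 0 and 1.20 FPKM in Gpr35+/+ and 0, 0, 0.682, 0 and 0.770 in Gpr35-/- ileum. Cox4i2, the lung isoform, did not exceed 0.301 FPKM and Ndufa4l2, a hypoxia-induced paralogue of Ndufa4, 0.255 FPKM in any library. These 5 genes passed the filter in neither tissue. Their widely expressed partners were far higher in ileum and macrophages, at 1134 and 501 FPKM for Cox4i1, 230.0 and 86.8 for Cox7b, 808 and 258 for Cox8a, and 453 and 226 for Ndufa4. Cox5a and Cox5b, which are different subunits and not isoforms, lay close together in ileum (554 and 539.5 FPKM) and less so in macrophages (179 and 247).

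**Figure D2:**
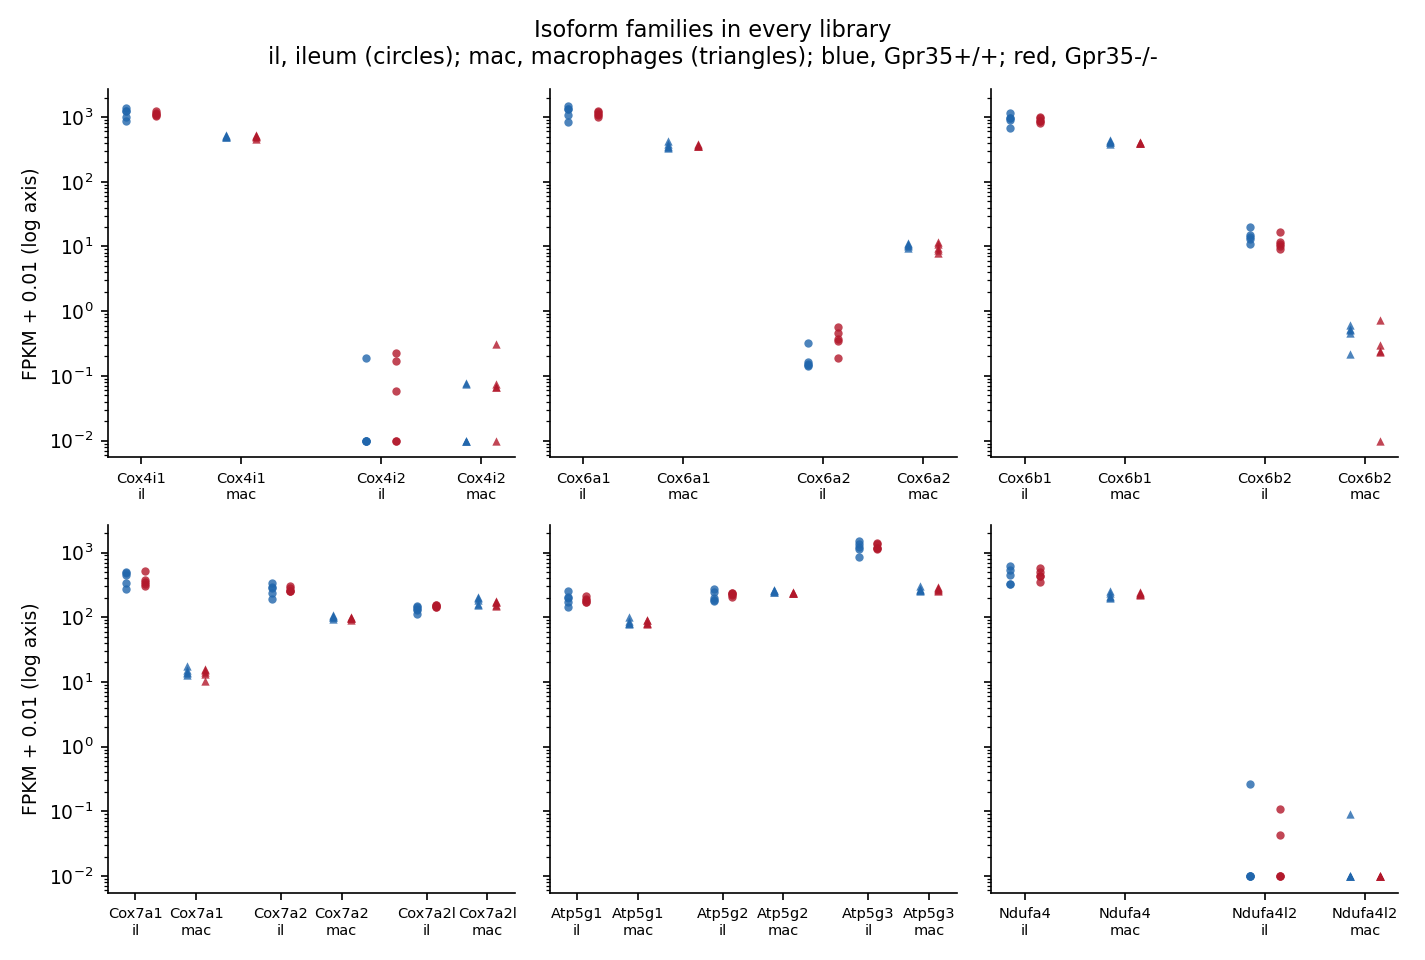
FPKM plus 0.01 (log axis) of 6 isoform families, with 1 point per library, circles for ileum, triangles for macrophages, blue for Gpr35+/+ and red for Gpr35-/-. Cox7a1 and Cox6b2 sit high in ileum and Cox6a2 in macrophages, and in each family the genotypes of a tissue overlap.

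Gpr35-/- and Gpr35+/+ libraries were compared next, on log2(FPKM + 0.5) with limma across all genes that passed the filter and Benjamini-Hochberg adjustment over all of them. Changes are Gpr35-/- minus Gpr35+/+ on that scale, followed by their 95% intervals in parentheses. In ileum 0 of 79 members passed an adjusted p of 0.05, where 5 of 11574 genes did (0.0432%), and 0 of 79 had an unadjusted p under 0.05, where 4.34% of all genes did (2.52% lower and 1.81% higher). In macrophages 0 of 79 members passed, where 6 of 11437 genes did (0.0525%), and 3 of 79 (3.80%) had an unadjusted p under 0.05, where 10.5% of all genes did. All 3 were lower in Gpr35-/-, where 5.88% of all genes were lower and 4.63% higher at that p. That direction moved with the processing. On a TPM scale, with each library divided by its summed FPKM, 1 of 3 was lower, and in the fit without Gpr35+/+ library 1 the number was 4 of 7, while a single fit over all 20 libraries gave 0 members at that p. No member's groups stood clear of each other in either tissue, where those of 0.855% of all genes did in ileum and 1.96% in macrophages. The smallest adjusted p of a member was 0.999 in ileum and 0.355 in macrophages.

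The estimates were small, and the intervals set how large a change these libraries could have missed. In ileum the members' changes ran from -0.31 to 0.19 with a median of -0.012, beside a median of 0.013 over all genes tested. The 95% interval was 0.29 wide on each side at the median, and for 76 of 79 members it lay within 0.5 of 0 on the log2 scale. In macrophages the changes ran from -0.12 to 0.085 with a median of -0.017, beside 0.0030 over all genes. There the interval was 0.098 wide on each side and lay within 0.5 of 0 for 79 of 79. Estimates below 0 numbered 48 of 79 in ileum and 54 of 79 in macrophages, against 45.6% and 48.3% of all genes. These splits moved with the scaling and the weighting. On the TPM scale 43 of 80 were below 0 in ileum and 30 of 80 in macrophages, and after quantile normalization 57 and 40 of 79. With weights per library 73 of 79 were below 0 in ileum (median -0.078) and 43 of 79 in macrophages. Without Gpr35+/+ library 2 the ileum median was -0.10, with 74 of 79 below 0 and 6 at an unadjusted p under 0.05 (7.59%, against 5.38% of all genes in that fit). Without Gpr35+/+ library 4 it was 0.055, with 11 of 79 below 0. The direction of the ileum median thus rested on single libraries, and 0 members passed in either fit.

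**Figure D3:**
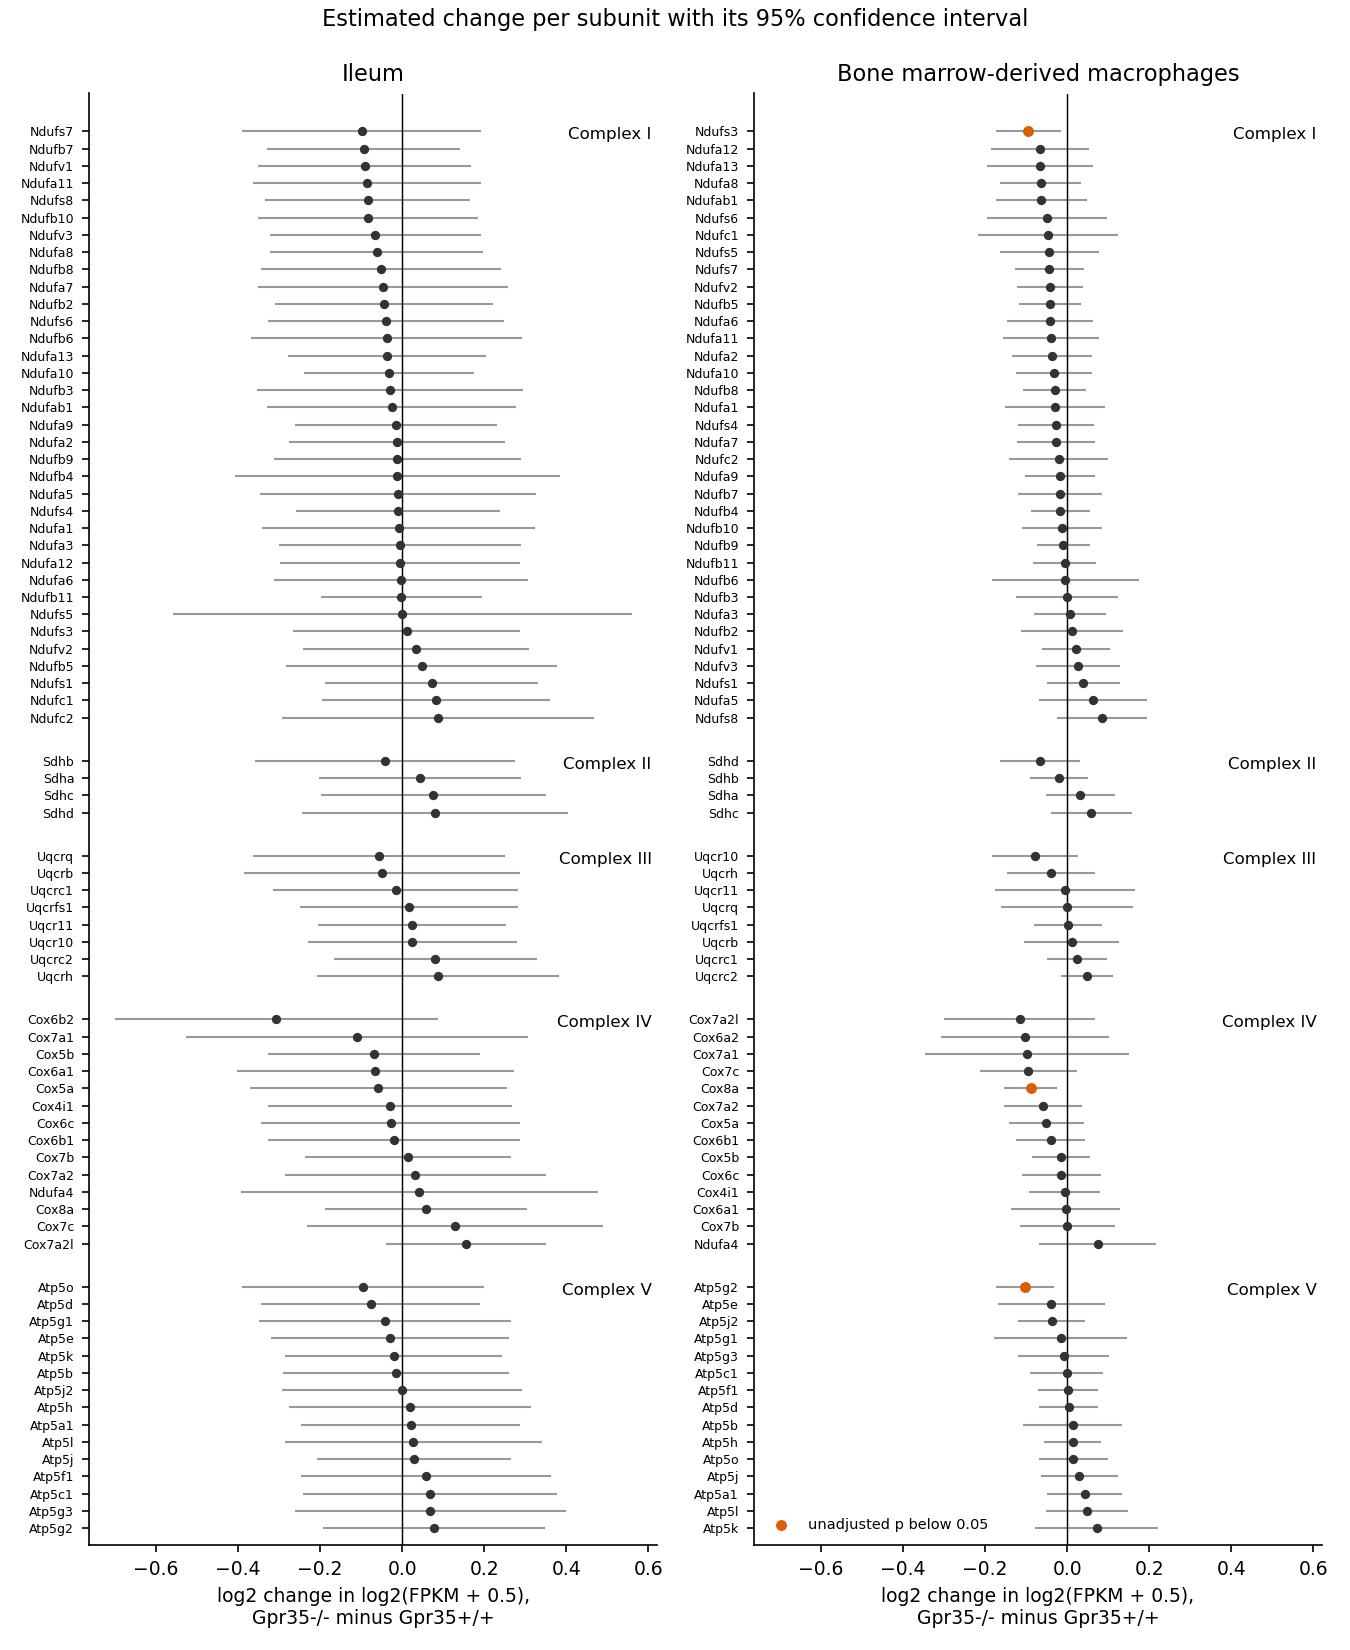
Change of the tested subunits, 1 of complex I left out (Gpr35-/- minus Gpr35+/+, log2(FPKM + 0.5)) with its 95% confidence interval, grouped by complex and sorted within it, in ileum and macrophages, and orange points have an unadjusted p below 0.05. The intervals are wider in ileum than in macrophages (median width on each side 0.29 against 0.098), and the 3 orange points are Ndufs3, Cox8a and Atp5g2 in macrophages.

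In complex I the median change was -0.015 in ileum and -0.027 in macrophages, with 0 of 36 subunits passing in each. Ndufs3, a core subunit of the arm that takes up electrons, had 63.7, 68.4, 63.4, 64.7 and 60.2 FPKM in Gpr35+/+ and 61.6, 58.5, 59.2, 59.5 and 61.1 in Gpr35-/- macrophages. All but 1 of the Gpr35+/+ libraries lay above every Gpr35-/- library, Gpr35+/+ library 5 being lower. The log2 change was -0.094 (SE 0.036, 95% interval -0.17 to -0.015, adjusted p = 0.407), and in ileum it was 0.011 (-0.27 to 0.29). Ndufs8, an iron-sulfur subunit of that arm, had the largest positive estimate in macrophages, 0.085 (-0.025 to 0.19), and -0.084 (-0.33 to 0.17) in ileum. In ileum the smallest p-values belonged to Ndufb7, an accessory subunit, with -0.094 (-0.33 to 0.14), and Ndufv1, which binds NADH, with -0.092 (-0.35 to 0.17). Ndufa3 and Ndufa11, at opposite ends of the range of levels, had -0.0053 (-0.30 to 0.29) and -0.085 (-0.36 to 0.19) in ileum and 0.0071 (-0.079 to 0.094) and -0.039 (-0.16 to 0.077) in macrophages.

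In complex II, which is made of 4 nuclear subunits and has none from the mitochondrion, the median change was 0.060 in ileum and 0.0060 in macrophages. Gpr35+/+ ileum library 2, at a median deviation of -0.50 for this complex, pulled the ileum value upward. Its sign without that library is not given here. Sdha, the flavoprotein that oxidizes succinate, had 184, 128, 192, 179 and 176 FPKM in Gpr35+/+ and 182, 182, 164, 183 and 168 in Gpr35-/- ileum. Gpr35+/+ libraries 1 and 3 lay above every Gpr35-/- library and Gpr35+/+ library 2 below all of them. The estimates in ileum were 0.043 (-0.20 to 0.29) for Sdha, -0.043 (-0.36 to 0.27) for Sdhb, and 0.076 (-0.20 to 0.35) and 0.080 (-0.25 to 0.41) for Sdhc and Sdhd, the membrane anchors. In macrophages they were 0.033 (-0.051 to 0.12), -0.021 (-0.091 to 0.050), 0.058 (-0.040 to 0.16) and -0.066 (-0.16 to 0.031). The interval held 0 for each of the 4 genes in both tissues.

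In complex III the median change was 0.020 in ileum and 0.0012 in macrophages, with 0 of 8 subunits passing in each. Uqcrc2, a core protein, had 0.080 (-0.17 to 0.33) in ileum and 0.048 (-0.015 to 0.11) in macrophages, and Uqcrh had 0.087 (-0.21 to 0.38) and -0.040 (-0.15 to 0.068). Uqcr10, a small subunit, had the lowest estimate of the complex in macrophages, -0.078 (-0.18 to 0.027), and 0.025 (-0.23 to 0.28) in ileum. For Uqcrfs1, which carries the iron-sulfur cluster that passes electrons on, the values were 0.017 (-0.25 to 0.28) and 0.0019 (-0.081 to 0.084).

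In complex IV the median change was -0.024 in ileum and -0.045 in macrophages, with 12 of 14 estimates below 0 in macrophages. Cox8a, a small membrane subunit expressed in most tissues, had 275, 254, 271, 266 and 265 FPKM in Gpr35+/+ and 252, 248, 249, 247 and 255 in Gpr35-/- macrophages. The groups touched only where Gpr35-/- library 5 lay just above Gpr35+/+ library 2. The log2 change was -0.089 (SE 0.029, 95% interval -0.15 to -0.024, adjusted p = 0.372), and in ileum it was 0.058 (-0.19 to 0.30). Cox7c, another small subunit, had -0.094 (-0.21 to 0.025) in macrophages and 0.13 (-0.23 to 0.49) in ileum.

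Cox7a2l, described as a factor of supercomplexes of complexes III and IV, was among the members whose estimates differed in sign between the tissues. Its allele and protein in these mice were not examined here. In ileum it had 146, 114, 133, 149 and 130.2 FPKM in Gpr35+/+ and 143, 154, 146, 149 and 154 in Gpr35-/-, with a log2 change of 0.16 (-0.039 to 0.35). In macrophages it had 153, 197, 162, 206 and 184 FPKM in Gpr35+/+ and 156, 172, 172, 178 and 151 in Gpr35-/-, with -0.12 (-0.30 to 0.069). The genotypes overlapped in both tissues. In macrophages Cox7a2l ran against the other members. It was lowest in Gpr35-/- library 5 and Gpr35+/+ library 1, the second being the library where most members were highest, and highest in Gpr35+/+ libraries 4 and 2. The median deviation of the macrophage markers was also lowest in Gpr35+/+ library 1 (-0.16) and highest in Gpr35+/+ libraries 4 (0.14) and 2 (0.12). It did not follow Cox7a2l among the Gpr35-/- libraries, with -0.027 in library 4, the highest there for Cox7a2l, and -0.0036 in library 5, the lowest. The 10 macrophage markers together summed to 3922 to 4234 FPKM in Gpr35+/+ and 3844 to 4147 in Gpr35-/-. Their part in the order of Cox7a2l was not tested. Its paralogue Cox7a2 had 0.032 (-0.29 to 0.35) in ileum and -0.060 (-0.15 to 0.035) in macrophages.

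Among the other genes of complex IV, Cox6b2 had the lowest estimate of any member in ileum, -0.31 (-0.70 to 0.088), at a low level and with the widest spread of values. Cox7a1 had -0.11 (-0.53 to 0.31) in ileum and -0.097 (-0.35 to 0.15) in macrophages, and Cox6a2 -0.10 (-0.31 to 0.10) in macrophages. The abundant forms are given in ileum first and in macrophages second. Cox4i1, which helps to regulate the enzyme, had -0.030 (-0.33 to 0.27) and -0.0062 (-0.093 to 0.080). Cox5a had -0.058 (-0.37 to 0.26) and -0.050 (-0.14 to 0.040), and Cox5b, which binds zinc, -0.069 (-0.33 to 0.19) and -0.015 (-0.085 to 0.055). Cox6a1 had -0.065 (-0.40 to 0.27) and -0.0037 (-0.14 to 0.13), and Cox6b1, which faces cytochrome c, -0.019 (-0.33 to 0.29) and -0.040 (-0.12 to 0.044). Cox7b had 0.014 (-0.24 to 0.27) and 0.00011 (-0.12 to 0.12), and Ndufa4 0.042 (-0.39 to 0.48) and 0.075 (-0.068 to 0.22). The interval held 0 for each of these genes.

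In complex V the median change was 0.020 in ileum and 0.0037 in macrophages, with 0 of 15 genes passing in each. Atp5g2, the c ring gene with the NRF1 core 42 bases before its start, had the smallest p of any member. It had 256, 248, 244, 264 and 261 FPKM in Gpr35+/+ and 236, 234, 234, 236 and 246 in Gpr35-/- macrophages. The groups overlapped only where Gpr35-/- library 5 exceeded Gpr35+/+ library 3. The log2 change was -0.10 (SE 0.032, 95% interval -0.17 to -0.031, adjusted p = 0.355). In ileum Atp5g2 had 195, 181, 186, 273 and 245 FPKM in Gpr35+/+ and 237, 221, 236, 226 and 205 in Gpr35-/-, with 0.077 (-0.19 to 0.35). Atp5g1 had -0.042 (-0.35 to 0.26) in ileum and -0.016 (-0.18 to 0.15) in macrophages, and Atp5g3 had 0.069 (-0.26 to 0.40) and -0.0083 (-0.12 to 0.10). The 3 genes share the sequence of the mature peptide, and how reads common to them were counted is not given in the sources used here.

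Of the catalytic head, Atp5d (the delta subunit) had -0.077 (-0.34 to 0.19) in ileum and 0.0037 (-0.068 to 0.075) in macrophages, and the 5 head genes had medians of -0.015 and 0.0037. Of the stalk and the membrane part, Atp5o, which joins the stalk to the head, had -0.095 (-0.39 to 0.20) and 0.016 (-0.069 to 0.10), Atp5l (subunit g) 0.027 (-0.29 to 0.34) and 0.048 (-0.052 to 0.15), and Atp5k -0.021 (-0.29 to 0.24) and 0.072 (-0.078 to 0.22). Of the 2 genes that only bear the name, Atp5s had 0.19 (-0.092 to 0.48) and -0.00084 (-0.12 to 0.11), and Atp5sl had -0.12 (-0.28 to 0.044) and -0.065 (-0.28 to 0.15). The estimate of Atp5s in ileum was the highest of the 79 members there, at a level of 2.75 FPKM.

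Whether the change differed between the tissues was tested in 1 limma fit over all 20 libraries, as the change in macrophages minus that in ileum. Of 80 members tested 0 passed, where 5 of 13079 genes did (0.0382%), and 2 (2.50%) had an unadjusted p under 0.05, where 6.48% of all genes did. 1 of the 2 was Cox6a2, which did not pass the filter in ileum and entered this fit through the macrophage libraries alone, so its difference rests on ileum values near the pseudocount and is not read here. The other was Cox7a2l, with a difference of -0.27 (SE 0.12, unadjusted p = 0.033, adjusted p = 0.721 from limma). Atp5g2 followed with -0.18 (SE 0.13, unadjusted p = 0.17, adjusted p = 0.924 from limma). In this full fit both of the 2 were negative, and 36 of 80 differences were above 0 (median -0.0043). Without Gpr35+/+ ileum library 2 the count at an unadjusted p under 0.05 was 7 of 80 (8.75%, against 8.13% of all genes), and 0 passed. Only 1 of these 7 was negative, and 69 of 80 differences were above 0 (median 0.091). The direction thus moved with that library, and the difference of Cox7a2l without it is not given here.

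In ileum the members deviated together from library to library. For each library the deviation of every member from its own mean over the 10 libraries was taken on the log2 scale. In ileum the median deviation was 0.076, -0.40, 0.11, 0.29 and -0.070 in Gpr35+/+ libraries 1 to 5 and 0.074, 0.14, -0.068, -0.072 and -0.11 in Gpr35-/- libraries 1 to 5. Gpr35+/+ library 2 was the lowest of all 10 libraries for 74 of 79 members and below the mean for 79 of 79. Gpr35+/+ library 4 was the highest for 59 and above the mean for 79 of 79, and Gpr35-/- library 2 was the highest for 12 others. The extremes therefore both lay in the Gpr35+/+ group, on either side of all 5 Gpr35-/- libraries. The summed FPKM of all rows was also lowest of the 10 ileum libraries in Gpr35+/+ library 2 (515563) and highest in Gpr35+/+ library 4 (628937). The deviations are not corrected for these totals.

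**Figure D4:**
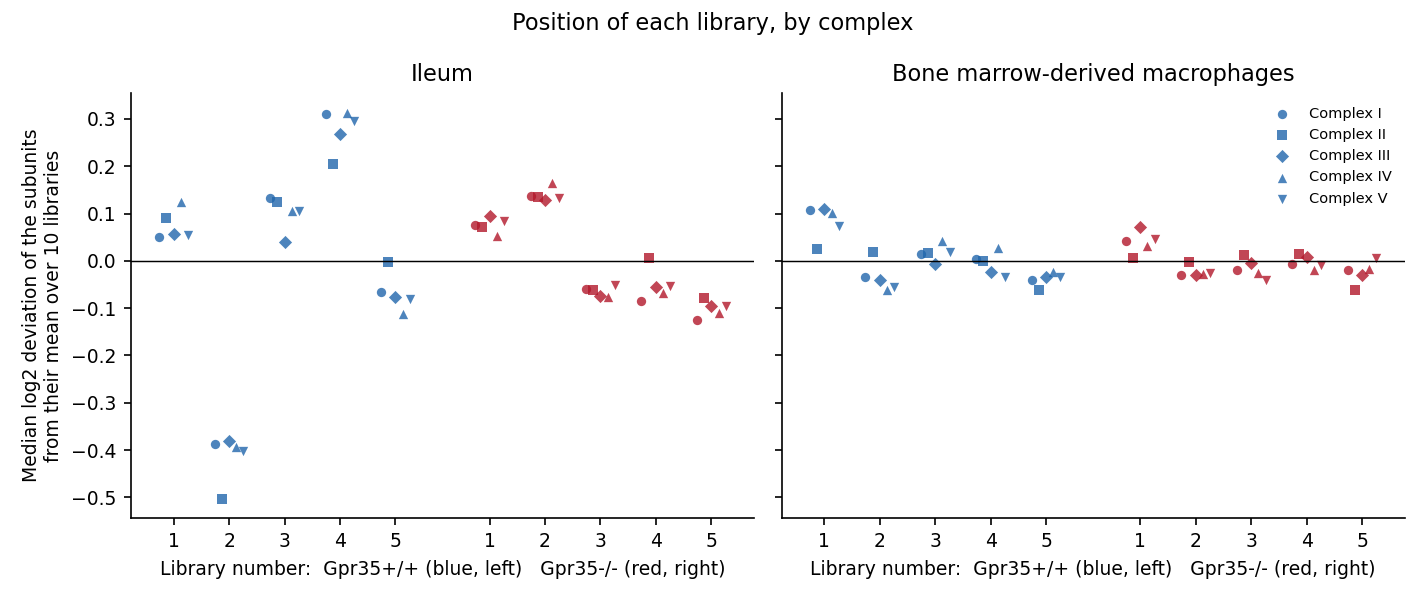
Median log2 deviation of the subunits of each complex from their mean over 10 libraries, by library, for ileum and macrophages, with blue for Gpr35+/+ and red for Gpr35-/-. All 5 complexes lie lowest in Gpr35+/+ ileum library 2 (to -0.50 for complex II) and are highest in library 4, while the macrophage libraries stay between -0.062 and 0.11.

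The 5 complexes deviated alike in ileum. In Gpr35+/+ library 2 the median deviation was -0.39 for complex I, -0.50 for II, -0.38 for III, -0.39 for IV and -0.40 for V, and in Gpr35+/+ library 4 it was 0.31, 0.21, 0.27, 0.31 and 0.30. The members whose lowest library was another one were Ndufb2 and Atp5e (Gpr35-/- library 4), Ndufa4 (Gpr35+/+ library 1), Cox6b2 (Gpr35-/- library 1) and Atp5sl (Gpr35-/- library 5). Ndufs5, an accessory subunit of complex I, stood out in Gpr35+/+ library 2, with 74.2, 31.2, 88.7, 91.0 and 75.3 FPKM in Gpr35+/+ libraries 1 to 5, against 63.7, 70.6, 77.7, 66.7 and 60.8 in Gpr35-/-. Ndufa4 had 323, 329, 539.7, 609 and 454 FPKM in Gpr35+/+ and 506, 569, 429.7, 347 and 428 in Gpr35-/-, low in Gpr35+/+ libraries 1 and 2 alike.

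Some other transcripts were at their lowest or highest in Gpr35+/+ ileum library 2 as well. The median deviation was -0.36 for the 18 citric acid cycle genes, -0.35 for 16 electron carriers and coupling genes, -0.87 for enterocyte markers and -0.11 for assembly factors, each the lowest of the 10 libraries. It was -0.12 for mitochondrial ribosomal proteins, for which Gpr35+/+ library 1 was lower, 0.0014 for cytosolic ribosomal proteins and -0.042 for all genes tested. RNAs without a poly(A) tail (2.00) and B and plasma cell markers (0.76) were highest there. Smooth muscle (0.97) and adipocyte markers (1.30) stood above their means but were higher in other libraries, at most 1.33 in Gpr35+/+ library 5 and 1.90 in Gpr35-/- library 5. Gpr35+/+ library 4, the highest for the members, had a median enterocyte marker deviation of -0.17 but the highest summed level of these markers, 42004 FPKM, and was also the highest for mitochondrial (0.28) and cytosolic ribosomal proteins (0.22). Gpr35+/+ library 1, above the mean for the members (0.076), was the lowest for cytosolic ribosomal proteins (-0.48), transcripts as short as the members at a median of 714 bases. The part of cell make-up, RNA quality, transcript length and the summed FPKM of a library in the spread was not tested.

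The median coefficient of variation (SD over mean of the 5 FPKM of a group) was 17.9% in Gpr35+/+ and 8.53% in Gpr35-/- ileum, beside 18.1% and 9.09% for all genes with a mean of at least 100 FPKM. Without Gpr35+/+ library 2 the Gpr35+/+ value was 11.4%. In macrophages it was 5.46% in Gpr35+/+ and 4.14% in Gpr35-/-, beside 5.77% and 5.11%. The members' medians cover all that were tested, of which only 62 in ileum and 44 in macrophages reached 100 FPKM. Over all genes tested, at any level, the median was 16.8% in Gpr35+/+ and 11.1% in Gpr35-/- ileum. In macrophages that median was 6.91% and 6.92%. The part of the greater depth of Gpr35-/- ileum libraries in their lower spread was not tested. By complex the medians ran from 16.8% (III) to 18.7% (IV) in Gpr35+/+ ileum, from 6.41% (II) to 9.48% (I) in Gpr35-/- ileum, from 4.72% (II) to 6.17% (IV) in Gpr35+/+ macrophages and from 2.91% (II) to 4.87% (III) in Gpr35-/- macrophages.

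Over all 10 libraries of a tissue the steadiest members in ileum were Ndufb11 (7.75%), Atp5sl (8.33%) and Cox7a2l (8.92%), and the most variable Cox6b2 (26.0%), Ndufs5 (24.0%) and Ndufa4 (22.4%). In macrophages Ndufb9, an accessory subunit of complex I (2.18%), and Cox5b (2.63%) were among the members that varied least, and Cox7a1 (13.4%), Atp5sl (12%) and Cox6a2 (11.3%) varied most. Atp5sl stood among the steadiest in 1 tissue and the most variable in the other.

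**Figure D5:**
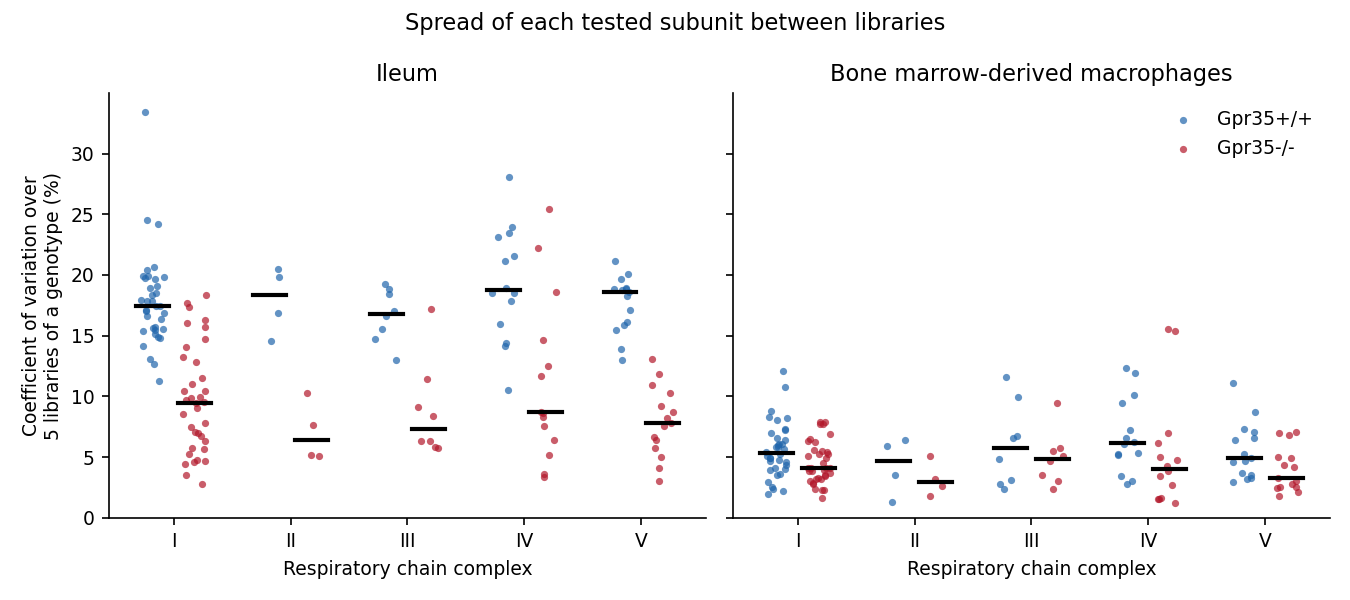
Coefficient of variation (%) of each tested subunit over the 5 libraries of a genotype, by complex, with 1 point per gene and a bar at the median, blue for Gpr35+/+ and red for Gpr35-/-. The Gpr35+/+ ileum medians lie between 16.8% and 18.7%, above those of Gpr35-/- ileum and of both macrophage groups.

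In macrophages the libraries lay closer together. The median deviation was 0.092, -0.041, 0.018, -0.014 and -0.041 in Gpr35+/+ and 0.040, -0.025, -0.020, -0.0080 and -0.019 in Gpr35-/- libraries 1 to 5. Gpr35+/+ library 1 was the highest of 10 for 50 of 79 members, while the lowest value fell to Gpr35-/- library 5 for 19, Gpr35+/+ library 2 for 16 and Gpr35-/- library 2 for 14. In Gpr35+/+ library 1 the mitochondrial ribosomal proteins (0.12) and citric acid cycle genes (0.081) were above their means too. Without it the median change was 0.0052, with 41 of 79 estimates above 0, 7 at an unadjusted p under 0.05 (8.86%, against 12.8% of all genes) and 0 passing. A fit with Gpr35-/- libraries 1 and 5 alone, the 2 that carry intestinal transcripts like the Gpr35+/+ libraries, was chosen after seeing the data. Its median was -0.00042 with 0 at an unadjusted p under 0.05, where 6.29% of all genes were. With only 2 Gpr35-/- libraries a change is harder to find, so this 0 says little.

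The genes around the complexes gave a like picture. Of 42 assembly factors, which build the complexes, 41 were tested in ileum and 42 in macrophages, and 0 passed in either (median changes -0.012 and -0.011). Of 18 citric acid cycle genes 0 passed (0.035 and 0.0068), as did 0 of 76 mitochondrial ribosomal proteins (-0.024 and -0.026) and 0 of 13 and 12 tested regulators of mitochondrial biogenesis (0.015 and 0.0033). Of 16 electron carriers and coupling genes 1 passed, Nnt, the transhydrogenase that uses the proton gradient to make NADPH, which was higher in Gpr35-/- macrophages with a log2 change of 0.92 (SE 0.059, adjusted p = 3.3e-05 from limma) and had 1.21 (SE 0.19, adjusted p = 0.079) in ileum. The C57BL/6 substrain of the mice is not given in the sources used here. Whether the Nnt change comes from the loss of Gpr35 or from another genetic difference was not tested. Cytochrome c (Cycs), cytochrome c1 (Cyc1) and the ATP synthase inhibitor Atpif1 had -0.057, -0.012 and 0.075 in ileum and -0.094, -0.033 and -0.013 in macrophages, and 0 of these 3 passed. The cytosolic ribosomal proteins, which like the members are short and abundant, had median changes of 0.19 in ileum and -0.085 in macrophages, where 44 of 82 had an unadjusted p under 0.05 in the lower direction, against 5.88% of all genes, and 0 passed.

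The members lie on 19 chromosomes, 6 of them on chromosome 1, where Gpr35 spans chr1:92950865-92986391 of GRCm38 in the GENCODE M21 annotation. The nearest is Ndufa10, an accessory subunit of complex I on the minus strand at chr1:92439010-92473860, 0.477 Mb away. Ndufa10 had 67.3, 60.0, 69.1, 78.2 and 82.8 FPKM in Gpr35+/+ and 72.0, 68.6, 68.0, 73.6 and 65.5 in Gpr35-/- ileum, and 66.5, 59.1, 60.8, 59.5 and 59.7 and 60.6, 55.8, 60.0, 59.7 and 62.5 in macrophages. The changes were -0.031 (-0.24 to 0.18) and -0.033 (-0.13 to 0.060), and the genotypes overlapped in both tissues. Ndufa10 was singled out for its place in the genome.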

How the data were processed

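Ileum and BMDM RNA was isolated with RNeasy kits, made into TruSeq stranded mRNA libraries and read as 50-bp single ends. The authors deposited FPKM in 1 table per tissue, scaled within it. Submitters' processing notes name GRCm38. Aligner, counting tool and annotation: not given in the sources used here. Of 23361 rows, 27 of the ileum table whose name had become a date were dropped. limma 3.58.1 (R 4.3.3, trend and robust) was run on log2(FPKM + 0.5) for rows reaching 0.5 FPKM in 5 or more libraries of the tissue, after 5 ileum and 2 macrophage rows listed at 0 throughout 1 genotype only had been dropped. Benjamini-Hochberg adjustment covered all rows tested, with a threshold of 0.05. The scripts (Python 3.11.15) were tested on simulated data. Genes were named for passing the threshold, for the smallest p, for an extreme level, percentile or spread, as isoform families, as complex II or as not passing the filter. The members, lists and rules were chosen with earlier results of these data known. The values of 1 member are not reported here. Promoters came from RefSeq. Coordinates of 84 of 85 members came from GENCODE M21.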

Additional observations from a re-analysis of the deposited data

Results flagged for a closer look

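A single library lay apart from the other 4 of its group for 13 of 169 groups of 5 FPKM values examined over the named genes (7.69%), where the gap from that library to its nearest neighbour exceeded 0.71 of the range (Dixon's 95% value for 5 samples). By chance that value is passed in about 1 in 20 groups, but the share found here cannot be set against it, since some genes were named for a large spread and in 3 cases the other 4 libraries are listed at 0, which fixes the ratio at 1. In ileum, 5 of the 8 cases were Gpr35+/+ library 2, and those of Cox4i2, Cox6a2 and Ndufa4l2 rest on values near 0. Ndufs8 had its highest value of Gpr35-/- ileum in library 1, 91.4 FPKM where the other 4 lay at 79.1 to 82.5 (ratio 0.725). Ndufa3 had its highest value of Gpr35-/- ileum in library 2, 511 FPKM where the other 4 lay at 402 to 428 (ratio 0.766). Ndufs5 had its lowest value of Gpr35+/+ ileum in library 2, 31.2 FPKM where the other 4 lay at 74.2 to 91.0 (ratio 0.72). Sdha had its lowest value of Gpr35+/+ ileum in library 2, 128 FPKM where the other 4 lay at 176 to 192 (ratio 0.754). Sdhc had its lowest value of Gpr35+/+ ileum in library 2, 119 FPKM where the other 4 lay at 173 to 190.0 (ratio 0.755). Cox4i2 had its highest value of Gpr35+/+ ileum in library 2, 0.178 FPKM where the other 4 are listed at 0 (ratio 1). Cox6a2 had its highest value of Gpr35+/+ ileum in library 2, 0.307 FPKM where the other 4 lay at 0.133 to 0.152 (ratio 0.89). Ndufa4l2 had its highest value of Gpr35+/+ ileum in library 1, 0.255 FPKM where the other 4 are listed at 0 (ratio 1).

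In macrophages there were 5 cases, and those of Cox4i2 and Ndufa4l2 rest on values near 0. Uqcrc2 had its highest value of Gpr35-/- macrophages in library 1, 74.7 FPKM where the other 4 lay at 70.5 to 71.6 (ratio 0.742). Cox7b had its highest value of Gpr35-/- macrophages in library 1, 94.1 FPKM where the other 4 lay at 83.2 to 86.2 (ratio 0.72). Cox4i2 had its highest value of Gpr35-/- macrophages in library 5, 0.301 FPKM where the other 4 lay at 0 to 0.0642 (ratio 0.787). Ndufa4l2 had its highest value of Gpr35+/+ macrophages in library 1, 0.0811 FPKM where the other 4 are listed at 0 (ratio 1). Atp5g2 had its highest value of Gpr35-/- macrophages in library 5, 246 FPKM where the other 4 lay at 234 to 236 (ratio 0.8).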

How the results depend on the processing

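The count of members passing the threshold was 0 in ileum, in macrophages and for the difference between tissues under every alternative run, which were other pseudocounts and filters, rows at 0 kept, a TPM scale, quantile normalization, weights per library, a spread without the robust option, 1 fit over all libraries, the replicate block and each library left out. With each library left out, the median change ran from -0.10 to 0.055 in ileum and from -0.033 to 0.0052 in macrophages. On a TPM scale the medians were -0.0033 and 0.018, beside 0.019 and 0.035 for all genes. With ileum centred on cytosolic ribosomal proteins, chosen after seeing the data, the median was -0.28, which follows from a shift of all genes by like amounts (median -0.25). The median coefficient of variation in Gpr35+/+ ileum, 17.9% as reported, was 11.5% on the TPM scale and 10.6% after quantile normalization (the cause was not tested), and 11.4% to 20.2% with 1 library left out, lowest without library 2. Single estimates of named members, none of them called, took the other sign in 110 of 880 pairs of member and alternative in ileum and 66 of 880 in macrophages. Whether same-numbered libraries were paired is not given in the sources used here. Their deviations correlated by -0.42 to 0.00839 in ileum and -0.16 to 0.27 in macrophages. The best match was the same-numbered library for 0 Gpr35+/+ libraries in ileum and 2 in macrophages. Such correlations cannot settle whether libraries were paired by litter or preparation. With the replicate block 0 members passed in ileum, macrophages and the difference between tissues, the medians were -0.012 and -0.017, and 4 of 79 macrophage members (5.06%) had an unadjusted p under 0.05, against 11.7% of all genes. Depth is known only relative to other libraries, so no counting error is given.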
